A study of Mus musculus with 6 samples.

Results

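Expression of 56 genes of the cell division cycle was compared in colorectal tumors of mice with and without the *Trp53* gene in the intestinal epithelium. They were chosen by name for their roles: 10 replication licensing genes, 4 genes of the replication fork, 8 G1 cyclins and cyclin-dependent kinases (CDKs), 8 transcriptional regulators of the E2F, Rb, MuvB and FoxM1 families, 11 genes of mitotic entry, 9 genes of the spindle and its checkpoint, the proliferation marker *Mki67*, and 5 CDK inhibitors. All 56 are among the 54167 genes with deposited values, and all 56 are among the 15117 genes tested, which had at least 1 TPM in at least 3 tumors.

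RNA was sequenced from 6 tumors of C57BL/6J mice. In the 3 *Trp53fl/fl* tumors both *Trp53* alleles carry loxP sites and no Cre was present. In the 3 *VP* tumors (*Pvillin-Cre* + *Trp53fl/fl*), Cre is driven by the villin promoter, which is active in intestinal epithelium, so that the other cells of a tumor keep the gene. All mice were given AOM (azoxymethane, a carcinogen) at 10 mg/kg at 8 weeks of age and 3 courses of 2.5% DSS (dextran sulfate sodium, which injures the colon lining) of 7 days each, and tumors were taken on day 98. The labels do not say whether each tumor came from its own mouse, so the tests measure the spread between these samples. Values are TPM, a measure of transcript abundance that is scaled for transcript length and library total. In whole tumors, fewer dividing cells and less RNA per dividing cell cannot be told apart.

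The labels were checked on *Trp53* itself and on the cells present. *Trp53* was at 124 ± 24.1 TPM (SD, n = 3) in *Trp53fl/fl* tumors and at 33.0 ± 5.31 TPM in *VP* tumors (log2 fold change -1.87 ± 0.18, SE, limma adjusted p = 0.0207). Without *Trp53fl/fl* replicate 1 or 3 or *VP* replicate 1 or 2 this adjusted p was 0.0968, 0.0562, 0.0605 and 0.108, and it was 0.0883 with the replicate number as a block and 0.104 without an expression filter. *Cdkn1a*, which encodes the CDK inhibitor p21 and is induced by p53, was at 160, 153 and 128 TPM against 97.99, 80.7 and 122 TPM (log2 fold change -0.56, limma adjusted p = 0.317). The 12 epithelial markers summed to between 10628 and 10954 TPM in *Trp53fl/fl* tumors and between 12069 and 13063 TPM in *VP* tumors, with 10 of 12 on the higher side in *VP* tumors. All 10 neutrophil markers had positive fold changes, and their sum was between 368 and 701 TPM in *Trp53fl/fl* and between 1184 and 2011 TPM in *VP* tumors. One of them, *Ngp*, a granule protein of immature neutrophils, passed the limma adjustment (adjusted p = 0.00804). The median log2 fold changes of the T cell, macrophage, fibroblast and endothelial markers were -0.20, 0.14, -0.08 and 0.14, with 0 genes past the adjustment. That of the smooth muscle markers was 0.26, with 6 of 6 positive, and that of the 2 B cell markers tested was 0.01, also with 0 past it. The part of these cells in the results for cell cycle genes was not tested.

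A dividing cell first licenses its DNA for replication in G1, when the origin recognition complex, Cdc6 and Cdt1 load the Mcm helicase. D-type cyclins with Cdk4 and Cdk6, and then cyclin E with Cdk2, phosphorylate Rb and related pocket proteins and so release E2F factors, which switch on the genes of S phase. B-Myb and FoxM1, bound with the MuvB complex, later switch on the genes of mitosis, and cyclin B with Cdk1 drives entry into mitosis. p53 acts on this circuit mainly through p21: when CDKs are inhibited, pocket proteins and MuvB form the DREAM complex, which represses cell cycle genes through E2F sites and through CHR elements in their promoters. In the colon the dividing cells are normally at the crypt base.

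A promoter of each of 4 members and both promoters of *Cdkn2a* are shown. Their transcripts are among those with the larger differences between genotypes or, for *Cdk1*, have the highest level among the genes of mitotic entry. The first 4 are the 150 bases before the start site in RefSeq (GRCm38.p6), written 5′ to 3′ on the gene's strand. Capitals mark the CHR letters TTTGAA (or TTCAAA on the other strand) and the CCAAT box (or ATTGG), to which the factor NF-Y binds.
*Mki67*, chr7:135716380-135716529, minus strand: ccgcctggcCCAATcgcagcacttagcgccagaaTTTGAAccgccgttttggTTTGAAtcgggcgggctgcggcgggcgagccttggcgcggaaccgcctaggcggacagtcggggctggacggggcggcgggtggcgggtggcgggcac
*Cdk1*, chr10:69352913-69353062, minus strand: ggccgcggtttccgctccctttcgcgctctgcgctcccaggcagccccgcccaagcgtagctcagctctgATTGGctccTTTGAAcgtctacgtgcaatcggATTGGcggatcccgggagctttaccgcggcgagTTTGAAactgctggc
*Kif11*, chr19:37376232-37376381, plus strand: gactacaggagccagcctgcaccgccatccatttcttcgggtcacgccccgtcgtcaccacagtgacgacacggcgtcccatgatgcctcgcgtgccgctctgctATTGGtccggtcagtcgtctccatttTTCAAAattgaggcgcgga
*Gtse1*, chr15:85859557-85859706, plus strand: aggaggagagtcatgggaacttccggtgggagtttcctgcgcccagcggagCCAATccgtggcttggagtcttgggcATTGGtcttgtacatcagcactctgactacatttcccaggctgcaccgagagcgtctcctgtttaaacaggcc
*Mki67* and *Cdk1* each hold TTTGAA 2 times in this stretch, and *Kif11* holds TTCAAA once close to the start. Of the letters marked, *Gtse1* holds only the CCAAT box here, and other CHR-like letters were not searched. The stretch shown for *Gtse1* lies before the first of its RefSeq starts along the strand. For *Cdkn2a* the 200 bases before each start are given, with capitals for the E2F letters TTTCCCGC.
*Cdkn2a*, p19Arf transcript, chr4:89294620-89294819, minus strand: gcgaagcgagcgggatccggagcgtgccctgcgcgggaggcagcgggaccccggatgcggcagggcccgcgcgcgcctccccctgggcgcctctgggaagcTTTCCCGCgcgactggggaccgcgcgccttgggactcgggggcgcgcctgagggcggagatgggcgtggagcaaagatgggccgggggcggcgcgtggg
*Cdkn2a*, p16Ink4a transcript, chr4:89282193-89282392, minus strand: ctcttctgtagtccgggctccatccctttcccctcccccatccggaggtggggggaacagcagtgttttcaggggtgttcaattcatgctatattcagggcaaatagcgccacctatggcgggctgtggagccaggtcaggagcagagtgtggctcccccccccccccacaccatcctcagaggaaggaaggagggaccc
The E2F letters stood only in the promoter of the p19Arf transcript. The deposited *Cdkn2a* value is 1 sum over the gene, so the transcripts cannot be told apart in it.

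RefSeq promoters were at hand for 42 of the 56 members. In the 250 bases before the start, searched on both strands, 8-letter E2F matches (TTTCCCGC, TTTGGCGC, TTTGCCGC or TTTCGCGC) were present in 10 of the 42 (23.8%), against 2.16% of all 27025 genes with a promoter entry. CCAAT or ATTGG stood in 30 of 42 (71.4%, against 37.5% of all), and TTTGAA or TTCAAA in 11 of 42 (26.2%, against 18.3% of all). By role, E2F letters stood in 5 of 8 licensing genes and in 0 of 8 spindle genes, and the CCAAT box stood in 8 of 8 genes of mitotic entry. CHR letters stood in 2 of 8 genes of mitotic entry and 2 of 8 spindle genes. Most promoters of these groups thus lacked them, unlike those of *Cdk1* and *Kif11* shown above. They stood in 2 of 3 fork genes, 2 of 5 transcription factors, 1 of 8 licensing genes, 1 of 4 CDK inhibitors and 0 of 5 G1 genes. A match is a run of letters and not a measured binding site.

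Over all tested genes, 25 (0.165%) differed between the genotypes at a limma adjusted p below 0.05, and 0 of the 56 members did. The lowest adjusted p of a member was 0.234, for *Gtse1*. With limma's array quality weights 2 of the 56 members passed, *Gtse1* (adjusted p = 0.0452) and *Cdkn2a* (adjusted p = 0.0404). Over all 15117 genes tested, 323 passed with these weights, against 25 in the main fit. That setting gave *Trp53fl/fl* replicate 1 a weight of 7.29 and the other tumors 0.444 to 1.04, and its estimation stopped before it converged.

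Without adjustment for the number of genes, 7 of the 56 members (12.5%) passed limma's 0.05 threshold on the lower side in *VP* tumors, against 8% of all genes tested: *Gtse1*, *Cdk6*, *Kif11*, *Ccna2*, *Mad2l1*, *Mki67* and *Cdkn1c*. On the higher side there were 2 (3.57%, against 4.51% of all genes), *Cdkn2a* and *E2f2*. In 10 members (17.9%) every *VP* tumor was below every *Trp53fl/fl* tumor, against 13.3% of all genes, and in 2 (3.57%) every *VP* tumor was above, against 6.03%. These shares of the members lay near those of all genes. The median log2 fold change of the members was -0.13, beside -0.07 for all genes tested, and 41 of 56 (73.2%) were negative, beside 60.8% of all genes. Leaving out *VP* replicate 3 or *Trp53fl/fl* replicate 3 left 30 and 31 of 56 negative, and leaving out *Trp53fl/fl* replicate 2 left 49. The 95% interval of the fold change, not adjusted for the number of genes, contained 0 for 47 of the 56. Its half-width had a median of 0.40 on the log2 scale. A typical member needed a difference above this to pass 0.05 before adjustment. With adjustment, larger differences were not called in the main fit either, such as -0.62 for *Gtse1* and 1.82 for *Cdkn2a*.

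**Figure D1:**
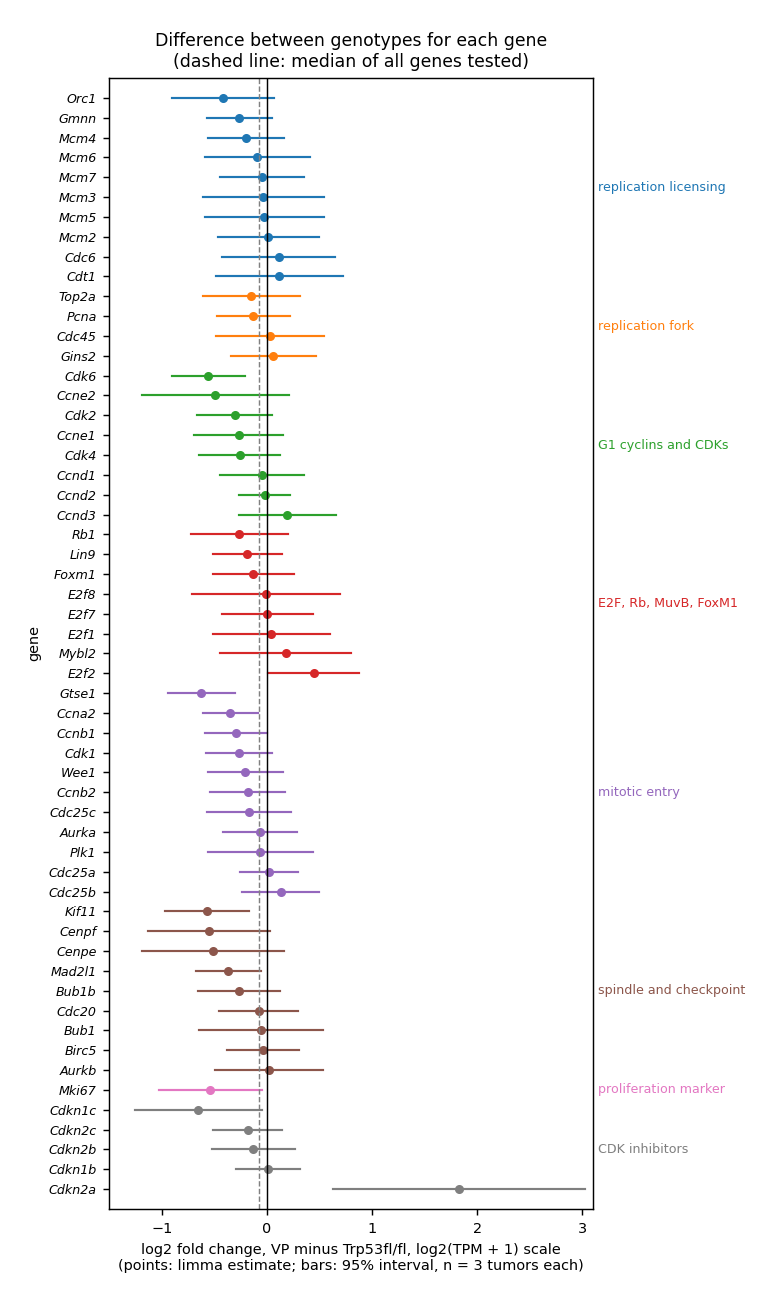
Log2 fold change (*VP* minus *Trp53fl/fl*, log2(TPM + 1) scale) of each of the 56 genes by role, with points for the limma estimate and bars for its 95% interval (n = 3 tumors each). The intervals of 47 genes contain 0, and *Cdkn2a* at 1.82 stands far to the right of the rest.

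The replication licensing genes did not separate the genotypes. Of the 10, which encode the Mcm2 to Mcm7 helicase and its loaders, 7 had negative and 3 positive fold changes, between -0.42 (*Orc1*) and 0.12 (*Cdt1*), and 0 passed 0.05 in limma before adjustment. *Mcm7*, a helicase subunit and the most abundant of the group, was at 70.5, 56.1 and 84.6 TPM in *Trp53fl/fl* replicates 1, 2 and 3 and at 67.8, 74.7 and 59.7 TPM in *VP* replicates 1, 2 and 3. The *VP* values lay within the range of the *Trp53fl/fl* values, and the log2 fold change was -0.05 (95% interval -0.45 to 0.35, limma adjusted p = 0.917). *Orc1*, a subunit of the origin recognition complex and the least abundant, was at 7.15, 5.91 and 9.20 TPM against 4.22, 6.33 and 5.28 TPM. The groups overlapped in *VP* replicate 2, and the log2 fold change of -0.42 had an adjusted p of 0.441 by limma. *Gmnn*, the inhibitor of Cdt1, came next with a log2 fold change of -0.26 and overlapping groups. *Mcm2*, *Mcm3*, *Mcm5* and *Mcm6* lay between -0.09 and 0.01, and *Mcm4* at -0.20.

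Within each genotype these genes moved together from tumor to tumor. *Trp53fl/fl* replicate 3 had the highest and replicate 2 the lowest value of its genotype in 10 of 10 licensing genes, and *VP* replicate 2 was the highest of its genotype in 9 of 10. *Mcm3*, for example, was at 66.6, 43.9 and 88.4 TPM in *Trp53fl/fl* replicates 1 to 3 and at 64.8, 68.1 and 54.5 TPM in *VP* replicates 1 to 3. The mean log2(TPM + 1) level of the group was 4.98 ± 0.33 (SD, n = 3) in *Trp53fl/fl* and 4.89 ± 0.18 in *VP* tumors, a difference of -0.08 that was smaller than either SD. The summed TPM of 7 B cell and germinal centre markers followed the same order, with its highest values in *Trp53fl/fl* replicate 3 (36.5 TPM) and *VP* replicate 2 (33.3 TPM) and its lowest in *Trp53fl/fl* replicate 2 (10.97 TPM) and *VP* replicate 3 (11.7 TPM). Only 2 of these 7 markers passed the expression filter. The summed TPM of 6 smooth muscle markers had the same order, from 488 TPM in *Trp53fl/fl* replicate 2 to 809 TPM in replicate 3. In *VP* tumors it ran from 415 TPM in replicate 3 to 1347 TPM in replicate 2. The part of either cell type in the licensing levels was not tested. Not every marker list had this order: most T cell markers, *Cd3d*, *Cd3e* and *Cd3g* among them, were lowest of all tumors in *VP* replicate 1. *Gcsam*, a marker of germinal centre B cells, did not exceed 0.50 TPM in any tumor.

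At the replication fork, *Pcna*, *Cdc45*, *Gins2* and *Top2a* had log2 fold changes between -0.15 and 0.06. *Pcna*, the sliding clamp of the DNA polymerases, was at 188, 176 and 177 TPM in *Trp53fl/fl* tumors and at 194, 171 and 134 TPM in *VP* tumors. Replicate 3 of *VP* was the lowest and replicate 1 of *VP* the highest of all 6, and the log2 fold change was -0.13 (95% interval -0.47 to 0.22, limma adjusted p = 0.725). *Top2a*, the topoisomerase that untangles replicated DNA, was at 102, 95.1 and 122 TPM against 105, 115 and 71.7 TPM, again with *VP* replicate 3 as the lowest (log2 fold change -0.15, limma adjusted p = 0.763). Without that tumor both estimates were positive, at 0.02 for *Pcna* and 0.05 for *Top2a*. *Cdc45*, a part of the active helicase, was at 14.4, 11.2 and 18.7 TPM against 15.7, 17.3 and 11.8 TPM and did not separate the genotypes (log2 fold change 0.03).

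Among the G1 cyclins and CDKs, 7 of 8 fold changes were negative, and *Cdk6* alone was without overlap (against 13.3% of all genes on the lower side). *Cdk6*, a partner of the D-type cyclins, was at 8.29, 9.44 and 8.86 TPM in *Trp53fl/fl* tumors and at 5.06, 6.58 and 5.50 TPM in *VP* tumors. Every *VP* tumor was below every *Trp53fl/fl* tumor, at 0.645 of the mean level, and the log2 fold change of -0.56 ± 0.15 (SE) had a limma adjusted p of 0.279. *Cdk4*, its close relative and the most abundant of all 56 members, was at 236, 184 and 258 TPM against 170.4, 173 and 219 TPM, with *VP* replicate 3 inside the *Trp53fl/fl* range (log2 fold change -0.26, limma adjusted p = 0.529). The cyclins that activate both kinases differed less: *Ccnd1*, *Ccnd2* and *Ccnd3* had log2 fold changes of -0.05, -0.02 and 0.20. *Ccnd2* varied least, between 73.2 and 83.2 TPM over the 6 tumors, and its 95% interval ran from -0.26 to 0.22.

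*Ccne2*, an E cyclin that activates Cdk2, was at 9.31, 8.28 and 4.35 TPM in *Trp53fl/fl* tumors and at 5.61, 5.51 and 3.29 TPM in *VP* tumors. Replicate 3 was the lowest of each genotype, the groups overlapped, and the log2 fold change was -0.49 ± 0.30 (SE, limma adjusted p = 0.515). *Ccne1* and *Cdk2* had log2 fold changes of -0.27 and -0.31. For *Cdk2* the *VP* tumors lay close together, at 23.4, 24.3 and 22.7 TPM, whereas the *Trp53fl/fl* tumors spread from 23.6 to 34.1 TPM.

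The transcription factors of the circuit divided evenly, with 4 positive and 4 negative fold changes and a median near 0. *E2f2*, an activator of S-phase genes, was at 9.09, 7.09 and 10.03 TPM in *Trp53fl/fl* tumors and at 10.5, 14.8 and 11.4 TPM in *VP* tumors. All *VP* tumors were above all *Trp53fl/fl* tumors, by a small margin between the nearest, and the log2 fold change was 0.44 ± 0.18 (SE, limma adjusted p = 0.390). *E2f1*, the other activator of the group, was at 0.04 on the same scale, and *E2f7* and *E2f8*, atypical E2Fs that repress, were at 0.00 and -0.01. *E2f7*, the least abundant member of all, was at 4.90, 3.36 and 4.55 TPM against 3.87, 4.94 and 3.97 TPM. *Foxm1*, the most abundant of these regulators, was at 14.1, 13.6 and 19.1 TPM against 13.5, 15.8 and 12.9 TPM, with overlapping groups (log2 fold change -0.13, 95% interval -0.52 to 0.26, limma adjusted p = 0.7604). *Mybl2*, which encodes B-Myb, was at 0.18, *Lin9* of the MuvB core at -0.19 and *Rb1* at -0.26, all with overlap between the genotypes.

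In the mitotic entry group 9 of 11 fold changes were negative, against 60.8% of all genes tested. In 4 genes every *VP* tumor was below every *Trp53fl/fl* tumor, against 13.3% of all genes: *Gtse1*, *Ccna2*, *Ccnb1* and *Cdk1*. *Gtse1*, a microtubule-binding protein of G2 and S phase that is itself induced by p53 in mouse cells, was at 14.3, 14.2 and 15.9 TPM in *Trp53fl/fl* tumors and at 10.2, 9.53 and 8.08 TPM in *VP* tumors. The lowest *Trp53fl/fl* tumor was well above the highest *VP* tumor, and the mean in *VP* was 0.627 of that in *Trp53fl/fl*. Its log2 fold change of -0.62 ± 0.14 (SE, limma adjusted p = 0.234) was negative under every alternative setting and with each tumor left out, between -0.80 and -0.53. It had the lowest p of the 56.

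*Ccna2*, the cyclin of S and G2 phase, was at 43.3, 44.7 and 47.7 TPM in *Trp53fl/fl* tumors and at 35.8, 38.6 and 31.9 TPM in *VP* tumors (log2 fold change -0.35 ± 0.11, SE, limma adjusted p = 0.330). *Ccnb1*, the mitotic cyclin, was at 34.5, 33.2 and 42.7 TPM against 29.7, 30.4 and 28.7 TPM (log2 fold change -0.29, limma adjusted p = 0.401). *Cdk1*, the kinase that both cyclins activate, was at 134, 123 and 164 TPM against 118, 122 and 107 TPM. For *Cdk1* the groups only just failed to meet, with 123 TPM in *Trp53fl/fl* replicate 2 and 122 TPM in *VP* replicate 2, and the log2 fold change was -0.27 (limma adjusted p = 0.446). *Ccna2* shares its locus with *Exosc9* on the other strand. Other members also overlap an expressed gene there, among them *Cdk4* (*Tspan31*), *Mcm7* (*Cops6*), *Cdc45* (*Ufd1*) and *Ccne2* (*Ints8*). Whether reads were assigned by strand is not given in the sources used here.

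The remaining genes of mitotic entry lay closer to 0. *Cdc25c*, a phosphatase that activates Cdk1 and the least abundant of the group, was at 5.27, 6.36 and 7.55 TPM against 6.06, 5.55 and 4.97 TPM (log2 fold change -0.17, limma adjusted p = 0.678). The related phosphatases *Cdc25a* and *Cdc25b* were at 0.02 and 0.13, and *Wee1*, the kinase that opposes them, at -0.20. *Plk1* and *Aurka*, kinases of the centrosome and spindle poles, were both at -0.06, and *Ccnb2* was at -0.18. *Trp53fl/fl* replicate 3 was the highest of all 6 tumors in 11 of 11 genes of this group, *Gtse1* included. The group's mean log2(TPM + 1) level was 4.78, 4.70 and 5.07 in *Trp53fl/fl* tumors and 4.70, 4.71 and 4.58 in *VP* tumors, which overlapped at the second decimal.

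**Figure D2:**
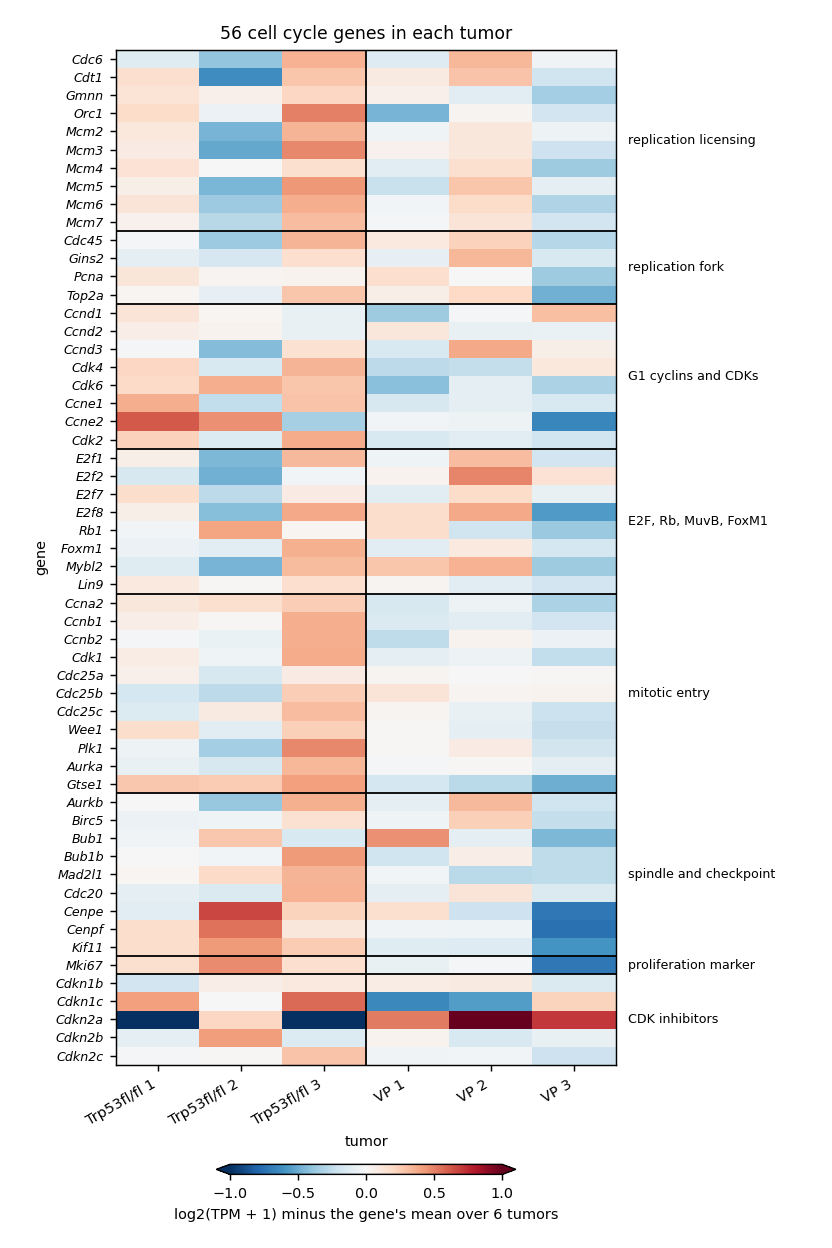
Heat map of log2(TPM + 1) for the 56 genes (rows, by role) in the 6 tumors (columns), each gene minus its mean over the tumors. *Trp53fl/fl* replicate 3 is red through the licensing and mitotic entry genes, *VP* replicate 3 is blue through most spindle genes, and *Cdkn2a* shows the widest range on this log scale.

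Of the 9 genes of the spindle and its checkpoint, 8 had negative fold changes, against 60.8% of all genes tested. On the lower side 3 were without overlap, against 13.3% of all genes: *Kif11*, *Mad2l1* and *Cenpf*. *Kif11*, the kinesin that pushes the spindle poles apart, was at 15.8, 18.9 and 16.6 TPM in *Trp53fl/fl* tumors and at 12.6, 12.6 and 8.79 TPM in *VP* tumors. Every *VP* tumor was below every *Trp53fl/fl* tumor, and the log2 fold change was -0.57 ± 0.17 (SE, limma adjusted p = 0.312). *Mad2l1*, which holds the checkpoint until chromosomes are attached, was at 32.6, 36.9 and 40.9 TPM against 31.6, 26.5 and 26.7 TPM (log2 fold change -0.37, limma adjusted p = 0.345). *Cenpf*, a kinetochore protein and the least abundant of the group, was at 4.96, 6.69 and 4.70 TPM against 4.15, 4.12 and 2.14 TPM (log2 fold change -0.55 ± 0.25, SE, limma adjusted p = 0.413). The other kinetochore gene, *Cenpe*, had a similar estimate of -0.51 but overlapping groups.

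*Birc5*, which encodes survivin of the chromosomal passenger complex and is the most abundant of the spindle genes, was at 65.3, 66.0 and 75.9 TPM in *Trp53fl/fl* tumors and at 65.9, 80.4 and 57.5 TPM in *VP* tumors. Its genotypes overlapped fully (log2 fold change -0.03, 95% interval -0.38 to 0.31, limma adjusted p = 0.936). *Aurkb*, the kinase of the same complex, was at 0.02. *Bub1*, *Bub1b* and *Cdc20*, which act in the checkpoint and on its target, the anaphase-promoting complex, were at -0.06, -0.26 and -0.08. *VP* replicate 3 was the lowest of all 6 tumors in 7 of these 9 genes.

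*Mki67*, the gene of the Ki-67 antigen that is used in pathology to count dividing cells, was at 30.8, 38.4 and 31.0 TPM in *Trp53fl/fl* tumors and at 26.0, 27.1 and 16.3 TPM in *VP* tumors. All *VP* tumors were below all *Trp53fl/fl* tumors, and *VP* replicate 3 was far below the other 2. The log2 fold change of -0.54 ± 0.21 (SE) had a limma adjusted p of 0.370, and it lay between -0.72 and -0.31 over all alternatives. *Pcna* and *Top2a*, also used as proliferation markers, had smaller estimates and overlapping groups, as given above.

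**Figure D3:**
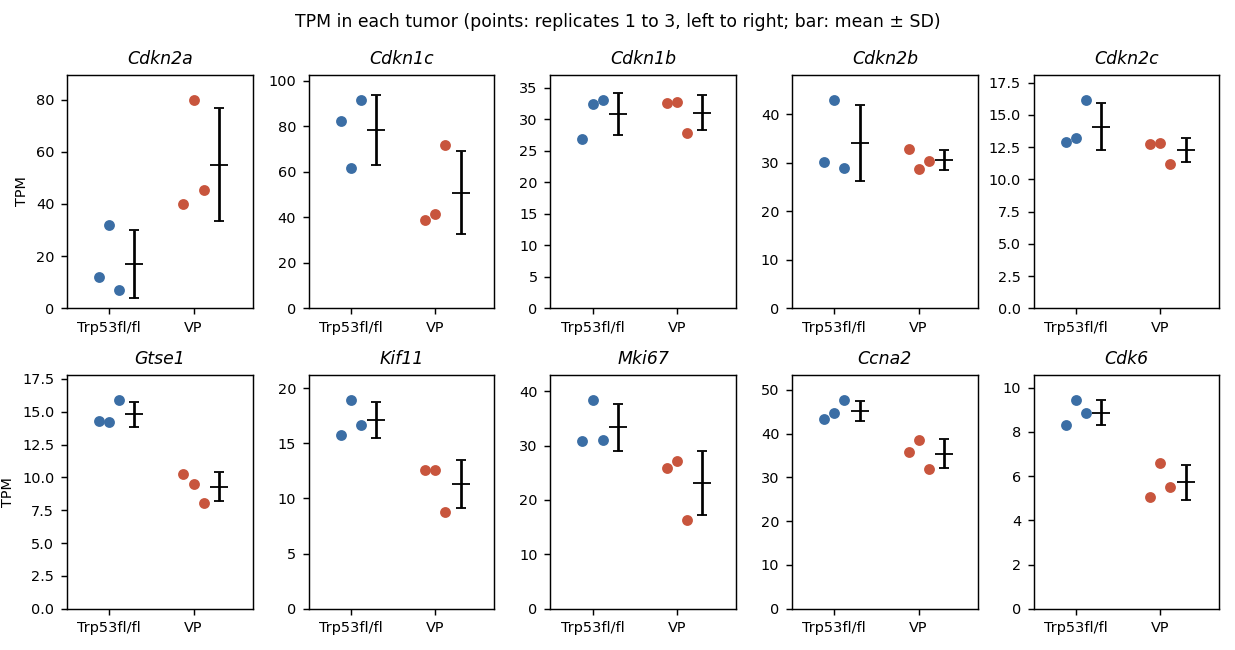
TPM of the 5 CDK inhibitors (top) and of 5 genes without overlap on the lower side (bottom) in each tumor, with points for replicates 1 to 3 from left to right and bars for mean ± SD (n = 3). All axes start at 0; *Cdkn2a* runs from 7.10 to 80.0 TPM, and the *Gtse1* values of the genotypes are separated by a gap.

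The largest ratio between the highest and the lowest tumor among the members, 11.3, was that of *Cdkn2a*, whose gene encodes 2 inhibitors, p16Ink4a of Cdk4 and Cdk6 and p19Arf, which stabilises p53 by blocking Mdm2. It was at 11.9, 31.9 and 7.10 TPM in *Trp53fl/fl* tumors and at 39.8, 80.0 and 45.4 TPM in *VP* tumors. The *VP* tumors were all above the *Trp53fl/fl* tumors, with replicate 2 the highest of each genotype. The mean was 17.0 ± 13.2 TPM (SD, n = 3) against 55.1 ± 21.7 TPM, 3.24 times as much. The log2 fold change of 1.82 ± 0.51 (SE) had a 95% interval from 0.63 to 3.02 and a limma adjusted p of 0.301. It stayed positive in every alternative, between 1.38 and 2.39, and its adjusted p ranged from 0.0404 to 0.634. This spread within *Trp53fl/fl*, 77.4% of the mean, was the largest of the 56 genes.

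*Cdkn1c*, which encodes p57, was the only member with a more negative estimate than *Gtse1*. It was at 82.1, 61.7 and 91.7 TPM in *Trp53fl/fl* tumors and at 39.0, 41.5 and 71.9 TPM in *VP* tumors. *VP* replicate 3 lay inside the *Trp53fl/fl* range, so the groups overlapped, and the log2 fold change was -0.65 ± 0.26 (SE, limma adjusted p = 0.377). *Cdkn2c* (p18) was at 12.9, 13.2 and 16.2 TPM against 12.7, 12.8 and 11.2 TPM, without overlap but with a gap smaller than the spread (log2 fold change -0.18, limma adjusted p = 0.597). *Cdkn2b* (p15), the neighbour of *Cdkn2a* on chromosome 4, was at 30.04, 43.0 and 28.97 TPM against 32.8, 28.6 and 30.3 TPM (log2 fold change -0.13, limma adjusted p = 0.762). *Cdkn1b* (p27) was at 26.9, 32.4 and 33.1 TPM against 32.6, 32.8 and 27.8 TPM, and its log2 fold change of 0.01 had a 95% interval from -0.29 to 0.32. The inhibitors thus held the highest and the lowest fold change of the 56 and did not share a direction.

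For 19 of the 56 members the difference between the genotype means in TPM was larger than the SD of either genotype, and for the others it was not. The same count was not made over all genes tested, so whether 19 is unusual is not known. *Trp53fl/fl* replicate 3 was the highest of the 6 in 34 of 56 members (60.7%, against 19.997% of all genes tested). *VP* replicate 3 was the lowest in 25 (44.6%, against 19.1%) and *Trp53fl/fl* replicate 2 in 20 (35.7%, against 20.4%). The mean log2(TPM + 1) over the 56 members was 4.69, 4.59 and 4.86 in *Trp53fl/fl* tumors and 4.61, 4.72 and 4.44 in *VP* tumors. The genotypes overlapped, and the difference of -0.12 was smaller than the SDs of 0.13 and 0.14. By role, the difference in mean level was -0.54 for *Mki67*, -0.27 for the spindle genes, -0.22 for the G1 cyclins and CDKs, -0.19 for mitotic entry, 0.01 for the transcription factors and 0.17 for the CDK inhibitors. The spindle genes and *Mki67* were low in *VP* replicate 3, whereas the licensing genes and transcription factors were about as low in *Trp53fl/fl* replicate 2. Smooth muscle markers were also lowest in *VP* replicate 3, with a sum of 415 TPM against 1347 TPM in *VP* replicate 2, and the part of this difference in tissue was not tested.

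**Figure D4:**
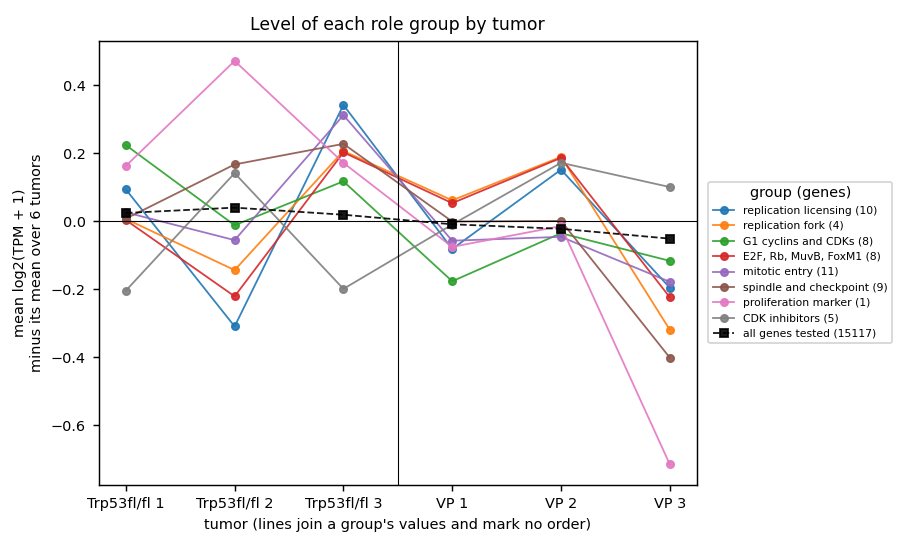
Mean log2(TPM + 1) of each role group in each tumor, minus its own mean over the 6 tumors; the black dashed line is the mean over the 15117 genes tested. The licensing genes reach their lowest level in *Trp53fl/fl* replicate 2 and their highest in replicate 3, and *Mki67* and the spindle genes are lowest in *VP* replicate 3.

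Other genes of the same pathways were read from lists made by function. Of 62 further genes of G2 and M phase, all tested, 57 (91.9%) had negative fold changes with a median of -0.28, beside 60.8% and -0.07 for all genes. None passed the limma adjustment. Before adjustment 12 passed 0.05 on the lower side (against 8% of all genes) and 1 on the higher side, and 21 were without overlap on the lower side (against 13.3% of all genes). The 12 became 4 with median-of-ratios rescaling (against 4.64% of all genes on the lower side), 5 with quantile normalization (against 5.36%) and 36 with epithelial centring (against 24.5%). Without *VP* replicate 3 the 12 became 3 (against 7.27% of all genes on the lower side). In that setting 50 of 62 stayed negative with a median of -0.14, beside a median of -0.07 for all genes. *Psrc1*, a microtubule-binding protein that p53 induces, had the smallest p of the list, at 16.2, 17.7 and 9.99 TPM in *Trp53fl/fl* tumors and 5.22, 4.70 and 3.12 TPM in *VP* tumors. All *VP* tumors were far below the *Trp53fl/fl* tumors, with a log2 fold change of -1.53 ± 0.25 (SE, limma adjusted p = 0.114). *Ckap2*, *Ect2*, *Cenpa* and *Cep55*, which act on spindle microtubules, in cytokinesis, at the centromere and at abscission, followed with log2 fold changes of -0.52, -0.33, -0.35 and -0.47, and none of these groups overlapped. The gene on the higher side was *Pttg1*, securin, at 46.0, 35.1 and 39.0 TPM against 48.8, 52.8 and 50.5 TPM (log2 fold change 0.34, limma adjusted p = 0.358), which is named because it was the single exception.

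The further S-phase genes stood closer to the background. Of 45, all tested, 33 (73.3%) had negative fold changes with a median of -0.11, and 0 passed the limma adjustment. On the lower side 3 of 45 passed 0.05 before adjustment, a smaller share than the 8% of all genes: *Blm*, a DNA helicase, *Nasp*, a histone chaperone, and *Dbf4*, the activator of the kinase that fires origins, with log2 fold changes of -0.45, -0.29 and -0.39. None was on the higher side. Of 20 further pocket protein, E2F, DREAM and inhibitor genes, 19 were found by name and tested, 15 had negative fold changes with a median of -0.15, and 0 passed the limma adjustment. *Cdk7*, the CDK-activating kinase, and *E2f3*, an activator E2F, passed 0.05 before adjustment on the lower side (against 8% of all genes), with log2 fold changes of -0.43 and -0.38 and no overlap between the genotypes. The pocket proteins *Rbl1* (p107) and *Rbl2* (p130) of the DREAM complex were at -0.04 and -0.27.

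The fold change also varied with the base composition of the transcript. Across the 14731 tested genes with an annotated transcript, Spearman's rho between log2 fold change and GC content was 0.28, and across the 56 members it was 0.47. These are descriptions over genes, which share the same 6 libraries. Among 5 equal classes of genes by GC content, the class with the lowest had a median log2 fold change of -0.21. The 10 members there ran from -0.57 (*Kif11*) to 0.01 (*Cdkn1b*), with a median of -0.32 and 9 of 10 negative. In the class with the highest GC content the median was 0.01. The 11 members there ran from -0.65 (*Cdkn1c*) to 1.82 (*Cdkn2a*), with a median of 0.04 and 5 of 11 negative. *Gtse1* (54.3% GC) at -0.62 and *Cdkn1c* (59.4% GC) at -0.65 lay below the medians of all genes in their GC classes, -0.001 and 0.01. The spread of single genes within a class was not examined. The part of base composition in the fold changes of single genes was not tested beyond an alternative fit that was chosen after the data were seen. Smooth trends with GC content and length were first removed from the values of each tumor, and the same limma model was then fitted. In that fit the median of the members was -0.14, 43 of 56 were negative and 0 passed the adjustment. Among the members with low GC content, that fit took *Mad2l1* from -0.37 to -0.15 and *Cenpf* from -0.55 to -0.36. The count of mitotic entry, spindle and *Mki67* genes that passed 0.05 before adjustment on the lower side went from 5 to 3 of 21. The share of all genes that did so went from 8% to 8.97%, and the count of all members from 7 to 8 of 56. The median of the 21 genes went from -0.20 to -0.22, with 18 negative in both fits. For the 62 further genes of G2 and M phase, the count on the lower side went from 12 to 9. Their median went from -0.28 to -0.20, with 57 and then 56 negative.

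**Figure D5:**
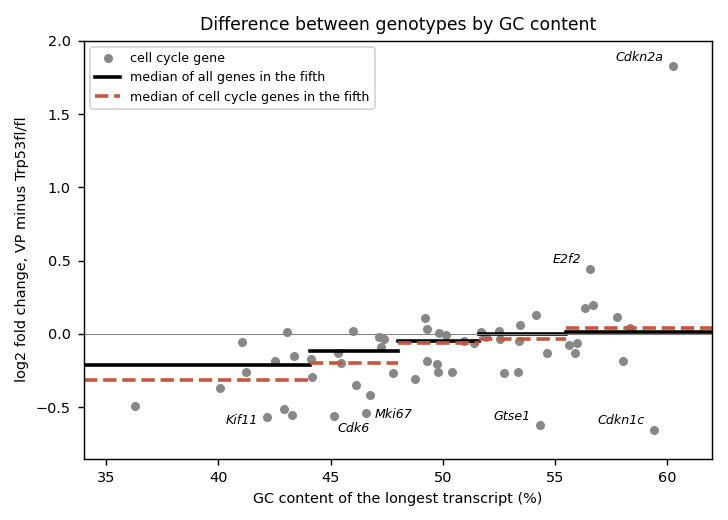
Log2 fold change (*VP* minus *Trp53fl/fl*) of the 56 genes against the GC content of their longest transcript. Black lines give the median of all genes tested in each of the 5 GC classes, from -0.21 to 0.01, and dashed red lines the median of the cell cycle genes in that class, from -0.32 to 0.04.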

How the data were processed

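Poly(A) RNA of 6 tumors was made into TruSeq libraries and sequenced from both ends by the authors, who deposited TPM per gene, to 2 decimals, without pooling. The submitters' processing notes name HISAT2, StringTie and mm9, with no versions. The annotation and any use of strand are not given in the sources used here. TPM keep no read numbers, so the depth is unknown and no counting error can be attached. The deposited columns sum to between 999964 and 1000067. Because every column has the same total, a TPM value also reflects the other genes of its tumor.

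The 56 members and all lists were chosen with earlier results of these data known. Genes that reached 1 TPM in 3 or more tumors were tested on log2(TPM + 1) with limma 3.58.1 in R 4.3.3 (genotype as the only term, empirical Bayes with trend, Benjamini-Hochberg adjustment over 15117 genes). The log2(TPM + 1) scale understates changes of weakly expressed genes. The procedure was tested on simulated data. Groups and replicate numbers came from the sample labels. Values in each tumor are given for *Mki67*, *Pcna*, *Top2a*, the CDK inhibitors, members below an unadjusted p of 0.05 or without overlap, and the most and least abundant member of each role. From each further list, genes below an unadjusted p of 0.05 are named, at most 5. Other values were chosen after they were seen.

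GENCODE M21 (GRCm38) gave transcript length, GC content and overlapping genes, and 17 members overlap a gene of at least 1 TPM on average. Promoters came from RefSeq (GRCm38.p6), which is not the build named in the notes, and no file coordinates were used. Alternatives were quantile normalization, rescaling by median-of-ratios, centring on 12 epithelial markers, a pseudocount of 0.1, no filter, a filter on the mean (5 TPM), a replicate block, no trend, array weights, an unadjusted threshold, GC and length adjustment (added after the data were seen), and each tumor left out.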

Additional observations from a re-analysis of the deposited data

How the results depend on the processing

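Of the values for single genes under 16 alternatives, 413 kept their direction and their side of the threshold, 25 turned in sign, 2 passed the threshold and 6, all of *Trp53*, no longer passed it. Over all genes tested, the 25 calls (12 higher, 13 lower) became 7 without a filter, 44 with epithelial centring (15 higher, 29 lower), 10 with the replicate block (7 higher, 3 lower), 323 with array quality weights, 16 with GC and length adjustment (11 higher, 5 lower) and 1892 without adjustment of p, and 3 to 23 with a tumor left out. Median-of-ratios rescaling gave 20 (12 higher, 8 lower). The 0 calls among members became 2 with array weights and 9 without adjustment of p. Epithelial centring took the all-gene median of the log2 fold change from -0.07 to -0.25, the median of the members from -0.13 to -0.31 and the difference in their mean level from -0.12 to -0.30. With a tumor left out these members' values ran from -0.22 to -0.05 and from -0.19 to -0.05. Median-of-ratios rescaling, which put the median of all genes at 0.00, left 30 of 56 members negative with a median of -0.05.

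The estimates that turned were close to 0. Rescaling gave *Mcm7* 0.028 and *Birc5* 0.043. Epithelial centring gave *Cdc45* -0.15, *E2f7* -0.18 and *Cdkn1b* -0.17. Array weights gave *E2f7* -0.12, *Cdc25c* 0.010 and *Birc5* 0.056. GC and length adjustment gave *Cdc45* -0.037. With a tumor left out, estimates of both signs were found for *Mcm7* (-0.20 to 0.091), *Cdc45* (-0.14 to 0.21), *Pcna* (-0.25 to 0.018), *Top2a* (-0.28 to 0.055), *E2f7* (-0.13 to 0.091), *Foxm1* (-0.21 to 0.017), *Birc5* (-0.16 to 0.078), *Cdkn1b* (-0.078 to 0.087) and *Cdkn2b* (-0.23 to 0.048). The sign turned without *VP* replicate 3 for *Pcna*, *Top2a*, *Mcm7* and *Birc5*, without *Trp53fl/fl* replicate 3 for *Mcm7*, *Foxm1* and *Birc5*, without *Trp53fl/fl* replicate 2 for *Cdc45*, *E2f7* and *Cdkn2b*, without *Trp53fl/fl* replicate 1 for *Cdkn1b*, without *VP* replicate 2 for *Cdkn1b*, *Cdc45* and *E2f7*, and without *VP* replicate 1 for *Cdkn1b* and *Cdc45*. The cause was not tested.

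Replicate numbers did not pair the tumors: the deviations of same-numbered tumors from their genotype means correlated at 0.02, -0.05 and 0.02 across genes. With the replicate block, the adjusted p of *Trp53* by limma was 0.0883, *Gtse1* had a log2 fold change of -0.62 and 0 members were called. With 3 tumors a genotype and unknown depth, absence of a call does not show equal levels.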
